A study of Mus musculus with 6 samples.

Results

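The genes described here are 10 nuclear genes that copy, transcribe or set the amount of the mitochondrial genome: Tfam, Tfb1m, Tfb2m, Polrmt, Polg, Polg2, Nrf1, Gabpa, Ppargc1a and Ppargc1b. They were taken by name from a deposited table of read counts for 24421 gene symbols, and 10 of 10 were found and tested. The cells were primary neural stem cells of mouse embryos at stage E13.5, grown as floating neurospheres with 20 ng/ml each of epidermal growth factor and fibroblast growth factor 2 in 20% oxygen. They were lysed on day 4 after dissociation. The Pml knockout group had 3 libraries. Pml encodes the scaffold protein of PML nuclear bodies. The WT group had 3 libraries from control cells kept in the same medium. No label says how Pml was inactivated, or whether the replicates came from separate embryos or cultures, so p-values measure only the spread between these libraries, which may be technical. The series title names mitochondrial integrity as one of the questions put to Pml loss, and these genes bear on the part of it that transcript levels can show.

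Mitochondria carry their own small circular genome, which encodes core respiratory chain subunits, while the proteins that replicate and read it are encoded in the nucleus. Tfam packages this DNA into nucleoids and bends it at the promoters. There the RNA polymerase Polrmt and the factor Tfb2m open the DNA and start transcription, and the polymerase Polg with its accessory subunit Polg2 copies the genome. Above this machinery stand the transcription factors Nrf1 and Gabpa, which bind the promoters of many nuclear genes for mitochondrial proteins, and the coactivators Ppargc1a and Ppargc1b, which bind such factors and raise their output when a cell needs more mitochondria. Neural stem cells depend on glycolysis to a large extent, and mitochondrial content is known to increase as they differentiate.

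The promoters of Tfam, Polrmt and Ppargc1a are shown because they hold the sites through which these regulators are thought to reach their targets. Each is RefSeq sequence of build GRCm38.p6, from 250 bases before to 50 bases after the annotated start, written on the strand of the gene. Such windows were matched for 9 of the 10 genes, with 10 windows in all because Nrf1 has a pair of starts. Capitals mark exact matches, on either strand, to the ETS core CCGGAAG that Gabpa's protein family reads, to the NRF1 core (GCGCA, any base, then GCGC), or to TGACGT, the core of the cAMP response element. The Tfam window lies at chr10:71237995-71238294 (minus strand), the Polrmt window at chr10:79746532-79746831 (minus strand) and the Ppargc1a window at chr5:51567676-51567975 (minus strand).
Tfam: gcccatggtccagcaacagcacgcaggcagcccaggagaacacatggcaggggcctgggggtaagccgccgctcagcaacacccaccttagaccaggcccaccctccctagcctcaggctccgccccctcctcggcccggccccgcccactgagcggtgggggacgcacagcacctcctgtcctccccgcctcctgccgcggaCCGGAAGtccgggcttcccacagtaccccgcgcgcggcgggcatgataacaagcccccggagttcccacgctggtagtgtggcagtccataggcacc
Polrmt: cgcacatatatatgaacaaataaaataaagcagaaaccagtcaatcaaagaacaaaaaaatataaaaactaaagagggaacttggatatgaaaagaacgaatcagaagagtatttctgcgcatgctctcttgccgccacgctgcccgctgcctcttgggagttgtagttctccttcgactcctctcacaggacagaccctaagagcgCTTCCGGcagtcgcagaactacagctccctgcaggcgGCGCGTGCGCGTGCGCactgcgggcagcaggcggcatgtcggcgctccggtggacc
Ppargc1a: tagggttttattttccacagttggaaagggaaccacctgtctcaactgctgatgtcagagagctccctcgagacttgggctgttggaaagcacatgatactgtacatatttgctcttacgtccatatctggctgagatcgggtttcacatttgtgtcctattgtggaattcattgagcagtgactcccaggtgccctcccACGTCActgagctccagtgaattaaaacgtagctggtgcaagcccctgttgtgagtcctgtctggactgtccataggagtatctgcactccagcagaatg
The ETS core was found in 5 of the 10 windows, those of Tfam, Polrmt, Polg, Polg2 and Gabpa itself, and in 8.86% of 32851 promoter windows of the same length. The NRF1 core was found in 1 of the 10, that of Polrmt, as a pair of matches that overlap each other and span the start site, and in 4.6% of all windows. The cAMP response core was found in the Ppargc1a window alone among the 10, and in 7.51% of all windows. A match describes these letters only, and no match says nothing about binding.

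Total reads per library ran from 4980638 to 5917505 in the Pml knockout and from 1775152 to 4413318 in WT. One read was worth between 0.149 and 0.165 CPM (counts after scaling each library to a common size) in the knockout, against 0.227 to 0.799 CPM in WT. Pml itself had 14, 23 and 5 reads in knockout replicates 1 to 3, against 36, 35 and 44 in WT replicates 1 to 3; Pml was lower in every knockout library than in any WT library but did not pass across all genes by edgeR's quasi-likelihood test (log2 fold change -2.81, SE 0.661, adjusted p 0.197), while it passed by DESeq2 (adjusted p 0.00341). Rn45s, the precursor of ribosomal RNA, accounted for 14.6% to 17.6% of reads in the knockout libraries, against 41.9%, 39.8% and 19.6% in WT replicates 1, 2 and 3. The 16 hepatocyte markers summed to between 83.1 and 112 CPM in the knockout and between 169 and 888 CPM in WT, with 14 to 15 markers detected per knockout library and 15 to 16 per WT library, and Afp was at 0 in 5 of the 6 libraries. The 10 neural stem cell markers summed to 6710 to 8240 CPM in the knockout and 5600 to 7370 CPM in WT. Abundant markers such as Vim carry this sum, so it does not describe each marker. Before scaling, Fabp7 had 4580, 12927 and 10374 reads in knockout replicates 1 to 3, against 1184, 92 and 3120 in WT replicates 1 to 3. Hes5 had 1858, 2610 and 1829 reads in the knockout, against 2291, 380 and 832 in WT. These reads are not levels, because 1 read was worth up to 0.799 CPM in WT and at most 0.165 CPM in the knockout. These 2 markers do not stand for the list. Erythroid markers stayed at or below 0.595 CPM and endothelial markers at or below 4.46 CPM in every library, while 5 microglial markers reached 30.4 CPM in WT replicate 2. Neuron markers summed to 569 to 604 CPM in the knockout and 461 to 656 CPM in WT, and Map2 had the most reads among them. Mesenchymal markers summed to 35.1 to 64 CPM in the knockout and 33.3 to 53.6 CPM in WT. WT replicates 1 and 2 stand apart by Rn45s and hepatocyte marker reads, and the estimates of the genes that depend on them are also given without them. By the ranks of all tested genes they do not form a pair. WT replicate 1 had a Spearman correlation of 0.915 with WT replicate 3 and 0.873 with WT replicate 2. Between WT replicates 2 and 3 it was 0.789. The part of these library differences in the results was not tested. In bulk RNA, fewer cells of a type and less RNA per cell cannot be told apart.

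No transcript among the 10 genes passed the test between Pml knockout and WT cells. By edgeR's quasi-likelihood test 0 of 10 had an adjusted p under 0.05, against 0.00884% of all 11317 tested genes, and 0 of 10 had an unadjusted p under 0.05, against 15.9% of all. On simulated counts this test recovered 0% of genes raised 2-fold and 8% of genes lowered 2-fold. Not passing therefore does not show equal levels. Estimates were above WT for 5 genes and below it for 5 (9 above and 1 below with library totals in place of factors, which shifts the median of all genes by 0.44 on the log2 scale), with a median log2 fold change of 0.05 over the 10 and -0.01 over all tested genes. DESeq2, limma voom and the edgeR exact test also called 0 of the 10, against 2.9%, 0% and 3.17% of all genes by the same tools. In the authors' deposited table the smallest adjusted p among the 10 was 0.338, for Ppargc1a, and 2.94% of all genes with a value had one under 0.05. The groups of CPM values did not overlap for 1 of the 10 genes, Ppargc1a, against 23.6% of all tested genes.

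**Figure D1:**
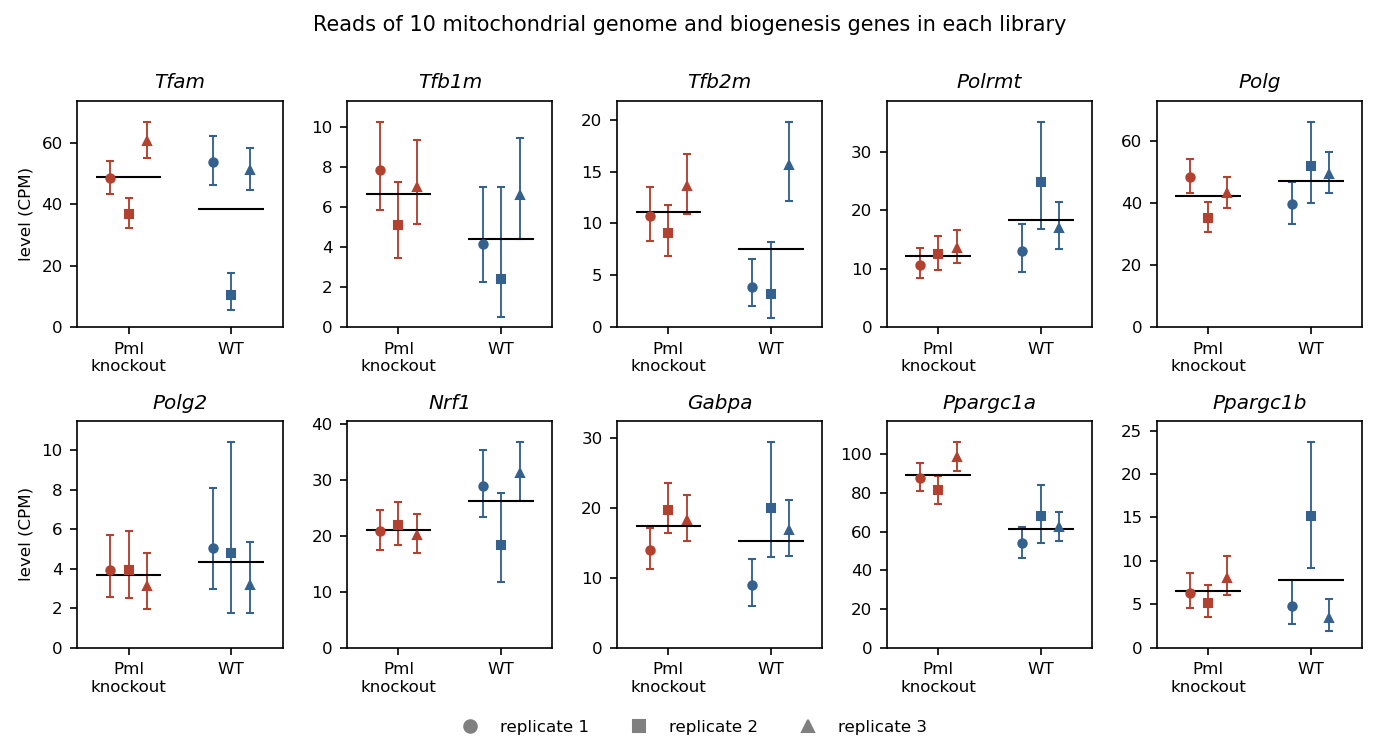
Level in CPM (y axis, linear, from 0) of each of the 10 genes in the 3 Pml knockout libraries (red) and the 3 WT libraries (blue), one panel per gene; symbols mark replicates 1 to 3, vertical bars are exact 95% Poisson intervals for counting error only, and horizontal lines are group means. For Ppargc1a the knockout libraries, at 81.3 to 98.6 CPM, all lie above the WT libraries, at 53.9 to 68.0 CPM; for the other 9 genes the groups overlap.

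Ppargc1a encodes the coactivator that sits at the top of the mitochondrial biogenesis programme and responds to energy demand, cold and exercise in other tissues (chromosome 5, 51454250 to 51567726, minus strand, GRCm38). It had 584, 493 and 661 reads in knockout replicates 1 to 3, against 181, 85 and 275 reads in WT replicates 1 to 3. As levels these were 87.9, 81.3 and 98.6 CPM in the knockout, against 53.9, 68.0 and 62.4 CPM in WT. Every knockout library stood above every WT library. The means were 89.3 ± 8.73 CPM in the knockout and 61.4 ± 7.09 CPM in WT (SD, n = 3 each), and the estimated fold was 1.46 with a 95% interval of 0.992 to 2.14. By edgeR this difference did not pass (log2 fold change 0.54, SE 0.25, unadjusted p 0.0543, adjusted p 0.323). Its estimate was above WT under 22 of 22 alternative settings, from 0.43 to 0.99 on the log2 scale. These settings reuse the same 6 libraries, so their number adds no independent support. The value of 0.99 came with library totals, which shift the median of all genes by 0.44. By limma voom with quality weights the adjusted p was 0.0723, the smallest with more than 1 WT library. Against WT replicate 3 alone, without WT replicates 1 and 2, the estimate was 0.51 (SE 0.260).

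Ppargc1b, a related coactivator with overlapping partners, had 42, 31 and 54 reads in the knockout libraries, against 16, 19 and 15 reads in WT. Its levels were 6.32, 5.11 and 8.06 CPM in knockout replicates 1 to 3, against 4.76, 15.2 and 3.41 CPM in WT replicates 1 to 3. WT replicate 2 was the highest of the 6 libraries and WT replicates 1 and 3 were the lowest, so the knockout values lay inside the WT range. Its log2 fold change was -0.12 (SE 0.602, edgeR adjusted p 0.936) with all libraries and 0.69 (SE 0.492, adjusted p 0.494) without WT replicate 2. The fold of Pml knockout over WT, 0.917, had an interval of 0.362 to 2.32. The number of Ppargc1a reads per Ppargc1b read, a ratio inside each library that needs no scaling factor, was 13.9, 15.9 and 12.2 in the knockout, against 11.3, 4.47 and 18.3 in WT. These ratios overlapped (exact permutation test, two-sided, p 0.6, adjusted p 0.8 over 3 ratios; the smallest p that 3 against 3 can give is 0.1).

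Nrf1 encodes nuclear respiratory factor, a DNA-binding activator of respiratory chain genes that is distinct from the product of Nfe2l2 (chromosome 6, 30047988 to 30153458, plus strand, GRCm38). Its knockout libraries were close to each other, at 20.8, 21.9 and 20.1 CPM, against 28.9, 18.4 and 31.1 CPM in WT replicates 1 to 3. WT replicates 1 and 3 were above every knockout library and WT replicate 2 was below them. Knockout over WT was -0.34 on the log2 scale (SE 0.312, edgeR adjusted p 0.607), with a fold of 0.790 and an interval of 0.489 to 1.28. Gabpa encodes the DNA-binding subunit of the GA-binding protein, an ETS family factor (chromosome 16, 84834925 to 84863779, plus strand, GRCm38). It had 93, 120 and 123 reads in the knockout, against 30, 25 and 74 in WT, or 14.0, 19.8 and 18.4 CPM against 8.93, 20.0 and 16.8 CPM. WT replicate 1 lay below the knockout range. Its log2 fold change was 0.22 (SE 0.385, edgeR adjusted p 0.798), and -0.06 (SE 0.354, adjusted p 0.955) without WT replicate 1. Gabpa starts divergently from Atp5j, a subunit gene of the ATP synthase, with which it shares 397 exonic bases at its 5′ end, away from the 3′ end that the tags are made from.

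Tfam, whose product packages the mitochondrial genome, had the widest spread between WT libraries of the 10 genes (chromosome 10, 71225464 to 71238280, minus strand, GRCm38). It had 323, 224 and 407 reads in the knockout libraries, against 181, 13 and 225 in WT replicates 1, 2 and 3. Those are levels of 48.6, 36.9 and 60.7 CPM in the knockout, against 53.9, 10.4 and 51.1 CPM in WT. WT replicates 1 and 3 lay inside the knockout range, and WT replicate 2 lay below all other libraries, its exact interval of 5.53 to 17.8 CPM not reaching the next lowest value. The means were 48.7 ± 11.9 CPM in the knockout and 38.4 ± 24.3 CPM in WT (SD, n = 3 each), and the log2 fold change was 0.30 (SE 0.485, edgeR adjusted p 0.775). Without WT replicate 2 the log2 fold change was -0.09 (SE 0.275, adjusted p 0.893). Set against single WT libraries, the 3 knockout libraries gave -0.13 for WT replicate 1 alone (adjusted p 0.795), -0.07 for WT replicate 3 alone (0.929) and 2.26 for WT replicate 2 alone (0.000513), where the lone library is assumed to vary like the knockout libraries. Against WT replicate 2 alone 36% of all tested genes passed.

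Tfb1m and Tfb2m are paralogs: Tfb2m's product is the initiation factor of mitochondrial transcription, while Tfb1m's product methylates the small ribosomal RNA of mitochondria. Tfb2m lies on the minus strand of chromosome 1 (179528055 to 179546267) and had 71, 55 and 91 reads in the knockout, against 13, 4 and 69 in WT. Its levels were 10.7, 9.07 and 13.6 CPM in knockout replicates 1 to 3, against 3.87, 3.20 and 15.7 CPM in WT replicates 1 to 3. WT replicate 3 was the highest of the 6 libraries, and WT replicates 1 and 2 were the lowest. With all libraries its log2 fold change was 0.46 (SE 0.575, edgeR adjusted p 0.711). It was 1.62 (SE 0.495, adjusted p 0.0557) without WT replicate 3, where 13% of all genes passed, and -0.50 (SE 0.379, adjusted p 0.524) against WT replicate 3 alone. Tfb2m passed against WT replicate 1 alone (1.53, SE 0.525, adjusted p 0.0491) and against WT replicate 2 alone (1.83, SE 0.682, adjusted p 0.0412). In these comparisons, chosen after seeing the data, the lone WT library is assumed to vary like the knockout libraries, and 16.8% and 36% of all tested genes passed. WT replicates 1 and 2 are also the WT libraries with more Rn45s and hepatocyte marker reads.

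Tfb1m lies on the minus strand of chromosome 17 (3519256 to 3557781) and had 52, 31 and 47 reads in the knockout, against 14, 3 and 29 in WT. Its levels were 7.82, 5.11 and 7.01 CPM in the knockout and 4.17, 2.40 and 6.58 CPM in WT replicates 1 to 3. WT replicate 3 lay inside the knockout range, and WT replicates 1 and 2 below it. Its log2 fold change was 0.52 (SE 0.505, edgeR adjusted p 0.631), with a fold of 1.43 and an interval of 0.658 to 3.11. It was 0.01 (SE 0.498, adjusted p 0.994) against WT replicate 3 alone. The 3′ end of Tfb1m lies inside Tiam2 on the opposite strand, which had 22, 63 and 42 reads in the knockout and 7, 0 and 16 in WT, and no source used here gives the strand setting of the counting. The number of Tfb2m reads per Tfb1m read was 1.37, 1.77 and 1.94 in the knockout, against 0.929, 1.33 and 2.38 in WT, and the groups overlapped (exact permutation test, two-sided, p 0.6, adjusted p 0.8).

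Polrmt, the phage-like RNA polymerase of mitochondria, had the lowest estimate of the 10 (chromosome 10, 79736123 to 79746581, minus strand, GRCm38). It had 71, 76 and 91 reads in the knockout, against 44, 31 and 75 in WT. Its levels were 10.7, 12.5 and 13.6 CPM in knockout replicates 1 to 3, against 13.1, 24.8 and 17.0 CPM in WT replicates 1 to 3. WT replicates 2 and 3 were above every knockout library and WT replicate 1 lay between knockout replicates 2 and 3. The means were 12.3 ± 1.46 CPM in the knockout and 18.3 ± 5.95 CPM in WT (SD, n = 3 each). The log2 fold change was -0.55 (SE 0.363, edgeR adjusted p 0.476), and its fold of 0.684 had an interval of 0.391 to 1.20. The estimate was below WT under 22 of 22 alternative settings, from -0.98 to -0.08, all of which reuse the same libraries. Tfam and Tfb2m, whose products work with that of Polrmt at the same promoters, had estimates above WT with all libraries. The directions of these genes depended on the WT library. Against WT replicate 3 alone Tfam was at -0.07, Tfb2m at -0.50 and Polrmt at -0.48. Against WT replicate 1 alone Tfam was at -0.13, Tfb2m at 1.53 and Polrmt at -0.08. Against WT replicate 2 alone Tfam was at 2.26, Tfb2m at 1.83 and Polrmt at -0.98.

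For the DNA polymerase genes the groups overlapped and neither passed. Polg, the catalytic subunit on chromosome 7 (79446231 to 79466362, minus strand), had 322, 214 and 290 reads in the knockout, against 133, 65 and 218 in WT. Its levels were 48.4, 35.3 and 43.3 CPM in the knockout, against 39.6, 52.0 and 49.5 CPM in WT. Its log2 fold change was -0.15 (SE 0.277, edgeR adjusted p 0.813) with a fold of 0.903 and an interval of 0.590 to 1.38. The 3′ end of Polg lies inside Fanci, a DNA crosslink repair gene on the opposite strand, with 921 exonic bases in common. Fanci had 48, 45 and 42 reads in the knockout and 19, 1 and 46 in WT. The strand setting of the counting is not known, so reads may have been lost or shared. Polg2, the accessory subunit that makes the enzyme processive (chromosome 11, 106768253 to 106779537, minus strand), had 26, 24 and 21 reads in the knockout and 17, 6 and 14 in WT. Its levels were 3.91, 3.96 and 3.13 CPM in the knockout, against 5.06, 4.80 and 3.18 CPM in WT, and the log2 fold change was -0.22 (SE 0.521, edgeR adjusted p 0.856). Its fold of 0.859 had an interval of 0.385 to 1.92. The 3′ end of Polg2 lies inside Milr1 on the opposite strand, with 132 exonic bases in common. Milr1 had 1, 0 and 0 reads in the knockout and 0, 0 and 0 in WT. The number of Polg reads per Polg2 read was 12.4, 8.92 and 13.8 in the knockout, against 7.82, 10.8 and 15.6 in WT (exact permutation test, two-sided, p 0.8, adjusted p 0.8).

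**Figure D2:**
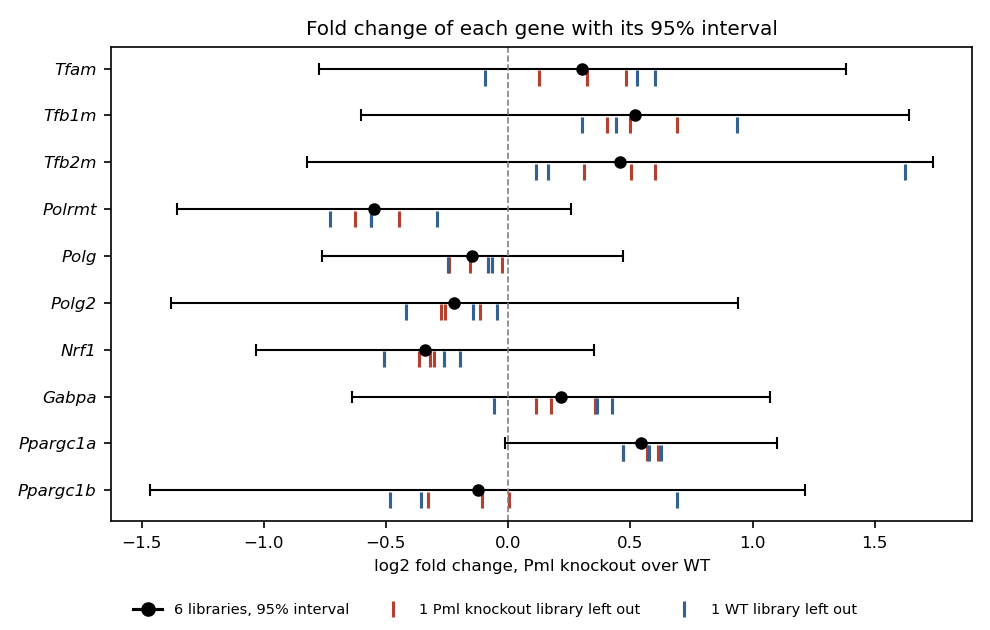
Log2 fold change of Pml knockout over WT (x axis) for each of the 10 genes (y axis), with all 6 libraries as black points and 95% intervals as bars; ticks under them give the estimate with 1 Pml knockout library (red) or 1 WT library (blue) left out. Every interval includes 0, that of Ppargc1a starting at -0.01; the largest moves come from leaving out WT libraries, as for Tfb2m without WT replicate 3 (1.62).

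The WT libraries differed from each other more than the knockout libraries did, and the 10 genes did not shift together. The SD of log2 CPM was larger in WT than in the knockout for 9 of the 10 genes, the exception being Polg, and for 83% of all tested genes. The median SD over the 10 genes was 0.243 in the knockout and 0.522 in WT, beside 0.243 and 0.579 over all tested genes. In WT replicate 2 the genes parted in opposite directions: relative to each gene's mean over the 6 libraries, Tfam stood at -1.84, Tfb2m at -1.23 and Tfb1m at -0.99 on the log2 scale, while Ppargc1b stood at 1.20 and Polrmt at 0.74. In WT replicate 3 Tfb2m stood at 0.93 and Ppargc1b at -0.83. No knockout library was further than 0.73 from a gene's mean. WT replicate 2 also had the fewest reads, 274 over the 10 genes, against 726 and 1131 in WT replicates 1 and 3 and between 1401 and 1920 in the knockout libraries.

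**Figure D3:**
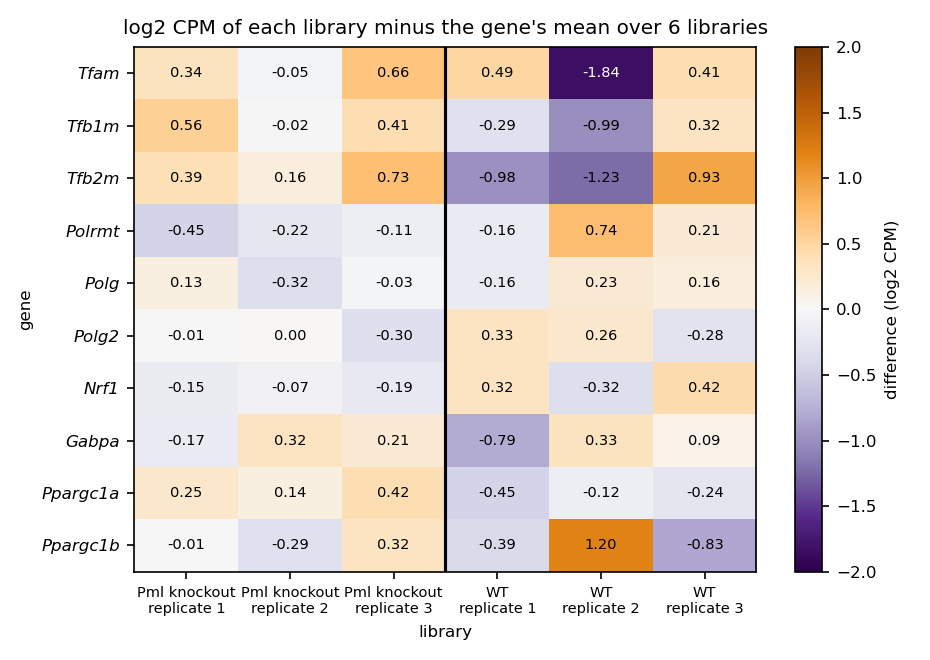
Log2 CPM of each gene (rows) in each library (columns) minus that gene's mean over the 6 libraries, in log2 units, with Pml knockout libraries left of the line and WT libraries right of it. The values of largest size, from -1.84 for Tfam to 1.20 for Ppargc1b, are in WT replicate 2, while the knockout columns lie between -0.45 and 0.73.

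Genes that work beside these 10 were taken from 6 lists, of which 0 genes passed by edgeR's quasi-likelihood test over all genes. Their counts at an unadjusted p under 0.05 are read against 6.7% of all tested genes above WT and 9.19% below it. List medians moved with the scaling and with single WT libraries, and some of these values are given beside them. Among 18 tested genes of mitochondrial DNA replication, repair and degradation, 6 had estimates above WT and 12 below, and 0 and 1 had an unadjusted p under 0.05. The median log2 fold change was -0.11, and 0.29 with library totals, where that of all tested genes was 0.43. It was 0.065 without WT replicate 3 and 1.18 against WT replicate 2 alone. Endog, a mitochondrial nuclease, averaged 8.63 ± 2.55 CPM in the knockout and 20.8 ± 8.38 CPM in WT (SD, n = 3 each; edgeR adjusted p 0.240). Primpol, a primase that can restart stalled replication, averaged 5.32 ± 0.733 CPM in the knockout and 1.56 ± 1.35 CPM in WT (adjusted p 0.316). Rnaseh2a, a subunit of a nuclease that removes RNA from DNA, averaged 27.0 ± 2.17 CPM in the knockout and 36.4 ± 6.55 CPM in WT (adjusted p 0.489).

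Of 13 tested genes that supply mitochondria with DNA precursors, 9 had estimates above WT and 4 below, and 1 and 0 had an unadjusted p under 0.05. The median log2 fold change was 0.34, but 0.11 without WT replicate 2 and -0.018 against WT replicate 1 alone. Slc25a36, a carrier of pyrimidine nucleotides, had 6.77, 10.2 and 9.25 CPM in the knockout, against 2.68, 3.20 and 5.45 CPM in WT (edgeR adjusted p 0.287). Mpv17, an inner membrane protein whose loss depletes mitochondrial DNA in mouse and human liver, had 32.4, 38.6 and 33.0 CPM in the knockout, against 16.7, 17.6 and 30.9 CPM in WT (adjusted p 0.363). Neither gene's groups overlapped, as held for 12.3% of all tested genes with the knockout above WT. Abat, a transaminase that breaks down GABA, averaged 63.6 ± 23.2 CPM in the knockout and 40.6 ± 12.6 CPM in WT (adjusted p 0.388), with overlap.

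Of 11 tested genes of transcription elongation, termination and nucleoids, 4 had estimates above WT and 7 below. The median log2 fold change was -0.42, and 0.005 with library totals, where that of all tested genes was 0.43. It was -0.12 without WT replicate 2 and 0.28 against WT replicate 1 alone. At an unadjusted p under 0.05 there were 1 above and 3 below. Mrpl12, a ribosomal protein also known to bind Polrmt, had 120, 61.7 and 97.1 CPM in the knockout, against 240, 241 and 150 CPM in WT replicates 1 to 3. Its groups did not overlap, as held for 11.3% of all tested genes with the knockout below WT (log2 fold change -1.18, SE 0.322, edgeR adjusted p 0.212). It passed by DESeq2 (adjusted p 0.0408) and by the edgeR exact test (0.0422), as did 2.9% and 3.17% of all tested genes. By limma voom 0% of all genes passed. Mrpl12 was named for its small p on these same libraries. Phb, a prohibitin scaffold of the inner membrane, averaged 28.9 ± 5.15 CPM in the knockout and 63.0 ± 20.5 CPM in WT (adjusted p 0.220). Atad3a, an ATPase tied to nucleoids, averaged 39.8 ± 4.33 CPM in the knockout and 67.4 ± 13.6 CPM in WT (adjusted p 0.242).

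Of 21 tested genes of mitochondrial RNA processing and stability, 7 had estimates above WT and 14 below, and 1 and 2 had an unadjusted p under 0.05. The median log2 fold change was -0.29, and 0.22 with library totals, where that of all tested genes was 0.43. It was -0.11 without WT replicate 1 or without WT replicate 2, and -0.066 against WT replicate 3 alone. Mtpap, the mitochondrial poly(A) polymerase, had 25.3, 23.9 and 25.1 CPM in the knockout, against 8.63, 11.2 and 15.7 CPM in WT (edgeR adjusted p 0.238). Tbrg4, a FASTK family RNA-binding protein, averaged 41.3 ± 12.7 CPM in the knockout and 81.6 ± 31.3 CPM in WT (adjusted p 0.245). Rexo2, an exonuclease that clears short RNAs, averaged 61.6 ± 9.99 CPM in the knockout and 97.8 ± 4.91 CPM in WT (adjusted p 0.252). The groups did not overlap for any of the 3, as held for 12.3% of all tested genes with the knockout above WT and 11.3% with it below, and the 3 were named for their small p on the same libraries.

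Partners and controllers of the biogenesis programme showed no common direction, with 19 of 30 tested genes above WT, 11 below and a median log2 fold change of 0.11, which was 0.24 without WT replicate 3 and 0 against WT replicate 3 alone. At an unadjusted p under 0.05 there were 1 above and 4 below. Prkag1, a regulatory subunit of the energy sensor AMPK, had 51.2, 43.0 and 41.3 CPM in the knockout, against 97.0, 271 and 53.6 CPM in WT replicates 1 to 3 (edgeR adjusted p 0.228), with WT replicate 2 far above the rest. Ppara, a nuclear receptor coactivated by Ppargc1a and abundant in liver, had 12.0, 13.7 and 12.8 CPM in the knockout, against 37.8, 38.4 and 12.9 CPM in WT replicates 1 to 3 (adjusted p 0.242). The higher values were in the WT libraries with the most Rn45s and hepatocyte marker reads, and WT replicate 3 lay inside the knockout range. Whether either has a part in the Ppara difference was not tested. Rcan1, an inhibitor of calcineurin, averaged 27.0 ± 5.21 CPM in the knockout and 53.3 ± 22.8 CPM in WT (adjusted p 0.252), again with overlap.

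Among 26 tested genes known as targets of NRF1 or GABPA in mammalian cells, 8 had estimates above WT and 18 below. The median log2 fold change was -0.26, and 0.17 with library totals, where that of all tested genes was 0.43. It was -0.41 without WT replicate 3 and -0.05 against WT replicate 2 alone. At an unadjusted p under 0.05 there were 1 above and 5 below, and the groups did not overlap for 2 above and 9 below, against 12.3% and 11.3% of all tested genes. Sdhb, the iron-sulfur subunit of complex II, had 370, 246 and 307 CPM in the knockout, against 544, 1038 and 388 CPM in WT replicates 1 to 3 (log2 fold change -1.09, SE 0.376, edgeR adjusted p 0.239). Ndufv1, a complex I subunit, averaged 114 ± 8.34 CPM in the knockout and 191 ± 37.5 CPM in WT (adjusted p 0.239). Atp5g1, a subunit of the ATP synthase ring, averaged 24.9 ± 10.04 CPM in the knockout and 54.7 ± 21.3 CPM in WT (adjusted p 0.238). In each of the 3 the WT libraries lay above the knockout libraries, with WT replicate 3 the nearest of the WT libraries to the knockout range.

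The number of list genes that passed by edgeR depended on which WT libraries were kept, and its share stayed near that of all genes. Without WT replicate 3, which leaves the WT libraries with the most Rn45s and hepatocyte marker reads, 17 of 122 tested genes of the 6 lists passed, or 13.9%, against 13% of all tested genes. Among the list genes named above these were Mrpl12, Phb, Mtpap, Tbrg4, Prkag1, Ppara, Rcan1, Atp5g1, Ndufv1 and Sdhb; they had been named for small p-values on the same libraries, so this share is no support. Against WT replicate 3 alone 1 of 124 list genes passed, or 0.806%, against 1.17% of all tested genes. That gene was Ung, a DNA repair glycosylase, and 0 of the 18 list genes named above passed.

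**Figure D4:**
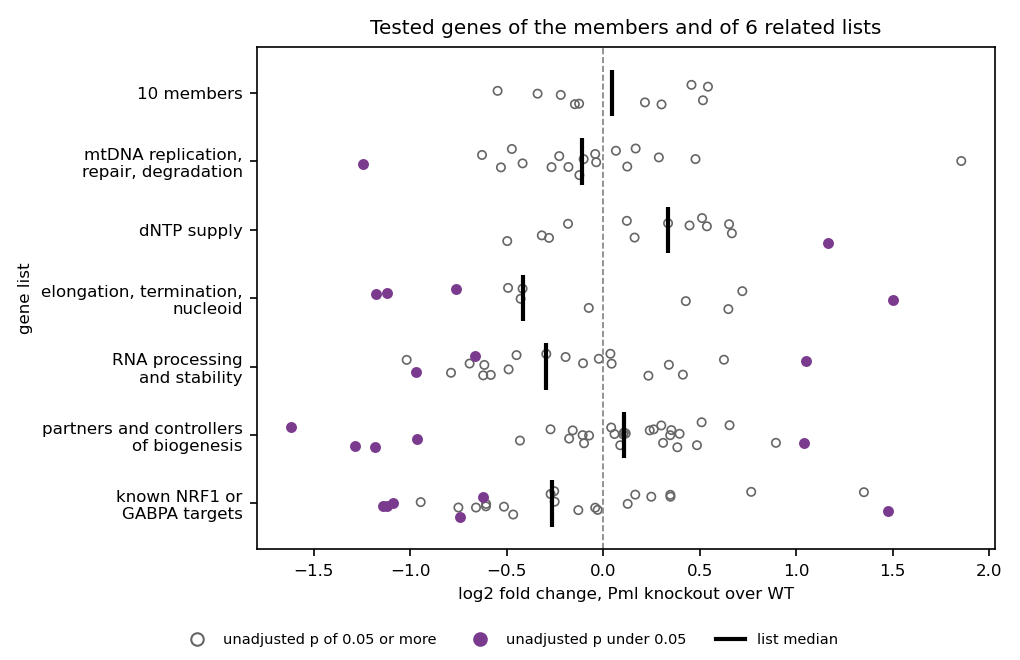
Log2 fold change of Pml knockout over WT (x axis) for the tested genes of the 10-gene list and of 6 related lists (y axis); filled points have an unadjusted p under 0.05, open points do not, and black bars are list medians. With all 6 libraries and TMM factors the medians run from -0.42 for elongation, termination and nucleoid genes to 0.34 for dNTP supply. With library totals the value for elongation, termination and nucleoid genes is 0.005, where the median of all tested genes is 0.43. No point passed after adjustment over all genes.

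The transcripts most like Ppargc1a over the 6 libraries, by the mean absolute difference between gene-centred log2 CPM among 6136 genes of at least 20 CPM, were D10Jhu81e (0.057), Alkbh5 (0.080), Cebpzos (0.083), Pcf11 (0.084) and Ikbip (0.087). D10Jhu81e had 74.9, 70.7 and 92.2 CPM in the knockout, against 44.6, 55.2 and 55.8 CPM in WT. Alkbh5, an RNA demethylase, averaged 69.1 ± 6.15 CPM in the knockout and 47.7 ± 1.63 CPM in WT (SD, n = 3 each). Pcf11, a cleavage and polyadenylation factor, averaged 90.3 ± 2.20 CPM in the knockout and 64.6 ± 4.19 CPM in WT. None of these 5 passed over all genes (smallest edgeR adjusted p 0.294), and they were named only for their likeness.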

How the data were processed

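The libraries were 3′ tag libraries (QuantSeq forward, 20 to 24 PCR cycles) from RNA of integrity above 7, per the labels' protocols, so reads lie near transcript ends and do not scale with length. The submitters' processing notes name FastQC, HISAT2, HTSeq, edgeR and the build mm10; versions, annotation and strand setting were not given in the sources used here. Per the file headers, the authors deposited counts (whole reads for each symbol) with their own log2 fold change, p-value and adjusted p-value. The 6 columns of the authors' normalised values were not used. Of 15 genes encoded by the mitochondrial genome that were sought by symbol, 0 were found among the counts. Their transcripts were therefore not analysed here.

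The fit used edgeR 4.0.16 under R 4.3.3: default filter (count minimum 10, total 15), which left 11317 genes, trimmed mean of M values factors, and a robust quasi-likelihood F test between the 2 groups without covariates. The threshold was 0.05 on p-values adjusted by Benjamini-Hochberg over all tested genes. The SE is the log2 fold change divided by the square root of F, and 95% intervals use the fit's t quantile. Levels are CPM with the library factors. Intervals on single libraries cover counting error only. The fit was first tested on simulated counts with known changes. It recovered 58% of genes raised 4-fold and 58% of genes lowered 4-fold. Of genes raised 2-fold it recovered 0%, and of genes lowered 2-fold 8%.

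The 10 members, the lists, the rules and the alternatives were chosen with earlier results of these data known. Named besides the members were Pml, Rn45s, the 3 genes per list with the smallest p, and the 5 genes most like the member with the smallest p. Alternatives were other factors, filters and tests (DESeq2 1.42.0, limma 3.58.1), a replicate block and left-out libraries; leaving out the hepatocyte markers and setting WT replicates 1 and 2 each alone against the knockout were chosen after seeing the data. Replicate numbers are those of the sample titles. Correlations of deviations from the group means were -0.003, 0.067 and 0.188 for same-numbered libraries. For libraries with different numbers they ran from -0.181 to 0.087. The library names in the labels are numbered otherwise. By them knockout replicate 1 shares a number with WT replicate 2 (0.087), and knockout replicate 2 with WT replicate 3 (-0.056). These values do not settle whether the numbers pair the libraries. No pair of replicates agreed within sampling noise (chi-square per degree of freedom 9.67 to 68.5). Positions are from GENCODE M21 on GRCm38, the assembly that mm10 names, and promoters from RefSeq.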

Additional observations from a re-analysis of the deposited data

How the results depend on the processing

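Of the 10 members, 0 were called under 21 of 23 alternatives; 1 (Tfb2m) was called without WT replicates 2 and 3 together and 2 (Tfam and Tfb2m) without WT replicates 1 and 3 together, where the lone WT library is assumed to vary like the knockout libraries. With a floor of 5 CPM in 3 libraries Polg2 was not tested. The numbers of genes called higher and lower in the knockout, 1 and 0 with all libraries, were 105 and 223 by DESeq2, 148 and 211 by the edgeR exact test and 482 and 760 by voom with quality weights. They were 91 and 51 without WT replicates 1 and 2 together, 981 and 1070 without WT replicates 2 and 3 together, and 2320 and 2096 without WT replicates 1 and 3 together. The number higher was 0 by voom, without the Rn45s row, above a floor of 5 CPM, with library totals and with size factors from DESeq2, and the number lower was 2 with no count filter. Leaving out 1 library gave 0 to 589 higher and 0 to 937 lower, the highest without WT replicate 3. With the replicate block, which used the numbers of the sample titles, 1 was lower. Whether these numbers pair the libraries is not known. The cause of these differences was not tested.

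The estimates of Tfb1m, Ppargc1a and Polrmt kept their sign under every alternative run, all of which reuse the same libraries. With library totals, which shift the median of all genes by 0.44, Polg stood at 0.29, Polg2 at 0.26, Nrf1 at 0.072 and Ppargc1b at 0.42. Ppargc1b also stood at 0.34 by voom, 0.42 by voom with quality weights, 0.047 with the replicate block, 0.93 without WT replicates 1 and 2 together and 0.46 without WT replicates 2 and 3 together. Without WT replicates 1 and 2 together Tfam stood at -0.07, Tfb2m at -0.50 and Polg2 at 0.20, and without WT replicates 2 and 3 together Tfam stood at -0.13 and Polg at 0.11. Without WT replicates 1 and 3 together Nrf1 stood at 0.22 and Gabpa at -0.17. With 1 library left out the ranges that include both signs were -0.093 to 0.60 for Tfam, -0.059 to 0.42 for Gabpa and -0.48 to 0.69 for Ppargc1b. Reads were fewest in WT replicate 2, where Tfb1m had 3, Tfb2m 4, Polg2 6 and Tfam 13.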

Other observations

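A few nuclear genes outside the naming rule were chosen here after their values were seen. Tefm, the elongation factor that keeps Polrmt on its template, had 4.51, 5.11 and 8.65 CPM in the knockout, against 1.79, 0.799 and 3.18 CPM in WT replicates 1 to 3 (edgeR adjusted p 0.275). Cox17, a copper chaperone for cytochrome c oxidase, had 67.4, 52.4 and 77.3 CPM in the knockout, against 22.9, 4.80 and 39.7 CPM in WT (edgeR adjusted p 0.240). Prkaa2, a catalytic subunit of AMPK, had 20.8, 18.1 and 16.9 CPM in the knockout, against 6.25, 5.60 and 14.1 CPM in WT (edgeR adjusted p 0.275), while Prkag1, a regulatory subunit of the same kinase, had values below WT. The groups did not overlap for Tefm, Cox17 and Prkaa2, as held for 12.3% of all tested genes with the knockout above WT; WT replicate 2 was the lowest library and WT replicate 3 was the WT library nearest to the knockout, and none passed over all genes. Without WT replicate 3, Cox17 (edgeR adjusted p 0.0244) and Prkaa2 (0.0291) passed, as did 13% of all tested genes, and against WT replicate 3 alone neither did.

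Peo1, which encodes the helicase that unwinds mitochondrial DNA ahead of Polg, had 11.3, 8.58 and 10.4 CPM in the knockout, against 17.9, 4.80 and 17.7 CPM in WT replicates 1 to 3 (edgeR adjusted p 0.633). Ssbp1, which coats the single strand behind it, had 20.6, 22.9 and 20.3 CPM in the knockout, against 14.0, 8.79 and 21.6 CPM in WT (edgeR adjusted p 0.539). For both, as for Tfam, Tfb1m, Tfb2m and Nrf1, WT replicate 2 was the lowest of the 6 libraries. For Polrmt, Polg, Gabpa and Ppargc1b it was the highest.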
